A study of Mus musculus with 20 samples.

Results

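Insulin lowers blood glucose in part by driving glucose into adipocytes. It binds its receptor, a tyrosine kinase encoded by *Insr*, which phosphorylates the docking proteins *Irs1* and *Irs2*. These recruit PI 3-kinase, whose regulatory subunits come from *Pik3r1*, and the lipid it makes recruits the kinases *Akt1* and *Akt2*. Akt phosphorylates the Rab GTPase-activating protein encoded by *Tbc1d4* (AS160), which releases vesicles carrying the glucose transporter GLUT4 (*Slc2a4*) to the cell surface. *Slc2a1* encodes GLUT1, the transporter of basal uptake, and *Hk2* encodes hexokinase 2, which traps glucose in the cell as glucose 6-phosphate. These 10 genes were chosen by name from this textbook pathway and followed across every group of an RNA-seq study of mouse fat. The choice was made with earlier results of these data known. All 10 were found among the 36611 genes to which the deposited transcripts could be assigned.

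The tissue was subcutaneous inguinal white adipose tissue (iWAT) of C57BL/6 females, group caged, 6 months old, kept on their diet for 15 weeks. There were 4 groups of 5 mice, and each mouse gave 1 library. The study's methods state that mice were fasted before dissection, so the levels are those of fasted animals. Control mice were littermates homozygous for a floxed *Tmem120a* allele (Tmem120a fl/fl), which the sample labels call wild type. Ad-Tmem120a-/- mice, called knockout here, carried the same floxed alleles and Adipoq-Cre, in which the adiponectin promoter drives Cre in mature adipocytes and removes exons 2 and 3 of *Tmem120a*. By the study's methods the floxed line was on C57BL/6N Tac and the Adipoq-Cre line on C57BL/6J. The share of each substrain in these mice is not given there. *Tmem120a* encodes a nuclear envelope protein. Mice of each genotype were fed either a low-fat diet with 10.5% of kcal from fat (LFD) or a high-fat diet with 58% (HFD). By the study's methods the LFD held more carbohydrate, mainly corn starch, and that of the HFD was mainly sucrose. Fat and carbohydrate thus differed together between the diets, and their effects cannot be told apart. The whole tissue was taken, so other cells of the depot contributed RNA, and fewer cells of a type cannot be told apart from less RNA per cell. The libraries were made from total RNA after removal of ribosomal RNA and held 54605101 to 92387737 estimated read counts each. Levels are given in TPM, a transcript abundance scaled for transcript length and for the size of the library, which allows genes to be compared. Changes between groups are log2 fold changes of read counts from edgeR, with standard error (SE), and a gene was called changed at an adjusted p under 0.1 over all genes tested.

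Several measures of the libraries bear on what follows. *Tmem120a* was 57.9 to 131.9 TPM in control LFD and 21.5 to 74.0 TPM in knockout LFD, and 83.3 to 195.7 TPM in control HFD and 29.5 to 89.7 TPM in knockout HFD, so the genotypes overlapped on both diets. Over both diets it was lower in knockout iWAT by a log2 fold change of -1.64 (SE 0.24, edgeR adjusted p = 0.00452, n = 10 against 10), and it did not pass within HFD (-1.67, edgeR adjusted p = 0.173) or LFD (-1.61, edgeR adjusted p = 0.929). The 10 white adipocyte markers summed to 19957 TPM or more in every library. Their sum was not level across groups, with medians of 28922.5 TPM in control LFD, 20777.6 in knockout LFD, 33195.1 in control HFD and 34906.0 in knockout HFD. The 12 skeletal muscle markers ranged from 8.29 to 3317 TPM, with all 5 knockout HFD libraries between 44.7 and 1461 TPM and all 5 control HFD libraries between 11.2 and 55.9 TPM. Mitochondrial transcripts took 17.3% to 29.7% of TPM on LFD and 11.3% to 20.1% on HFD, and on the log2 TPM scale the median gene lay 0.10 higher on HFD than on LFD over both genotypes. Members' TPM on HFD are to be read against that shift, which the count scale of edgeR did not show (median gene -0.03).

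Arranged by mean TPM over the 20 libraries, neighbouring genes overlapped in range, except for *Irs1* and *Slc2a1*. *Akt2* (118.1 ± 34.7 TPM, mean ± SD, n = 20) and *Pik3r1* (116.1 ± 22.4 TPM) were the most abundant, and *Akt2* exceeded *Pik3r1* in 12 of 20 libraries, so the order of this pair was not fixed. *Slc2a4* followed at 38.8 ± 20.6 TPM and lay below *Pik3r1* in 20 of 20 libraries. *Akt1* (23.8 ± 8.9 TPM), *Insr* (23.7 ± 4.1 TPM), *Tbc1d4* (21.8 ± 5.0 TPM), *Hk2* (18.2 ± 4.2 TPM) and *Irs1* (15.8 ± 6.2 TPM) lay close together, with neighbours in this order exchanging places in at least 6 of 20 libraries. The scarce genes were *Slc2a1* (3.51 ± 0.98 TPM) and *Irs2* (2.47 ± 0.97 TPM), and the highest *Slc2a1* library (5.01 TPM) was below the lowest *Irs1* library (7.42 TPM). *Akt2* exceeded *Akt1*, and *Slc2a4* exceeded *Slc2a1*, in every library. The ratio of *Akt2* to *Akt1* ran from 2.82 to 9.69 and that of *Slc2a4* to *Slc2a1* from 2.96 to 20.7. These levels are gene sums, which include short models without coding sequence. Such models, Akt1-007 and Akt2-012, took 20.9% and 21.6% of their gene's TPM but 3.17% and 8.28% of its estimated counts. The complete coding transcript of *Slc2a4* alone averaged 23.5 TPM on LFD and 16.5 TPM on HFD. *Slc2a4* was also the most variable member, with an 8.21-fold span between its lowest and highest library, against 1.89-fold for *Insr* and 1.88-fold for *Pik3r1*.

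**Figure D1:**
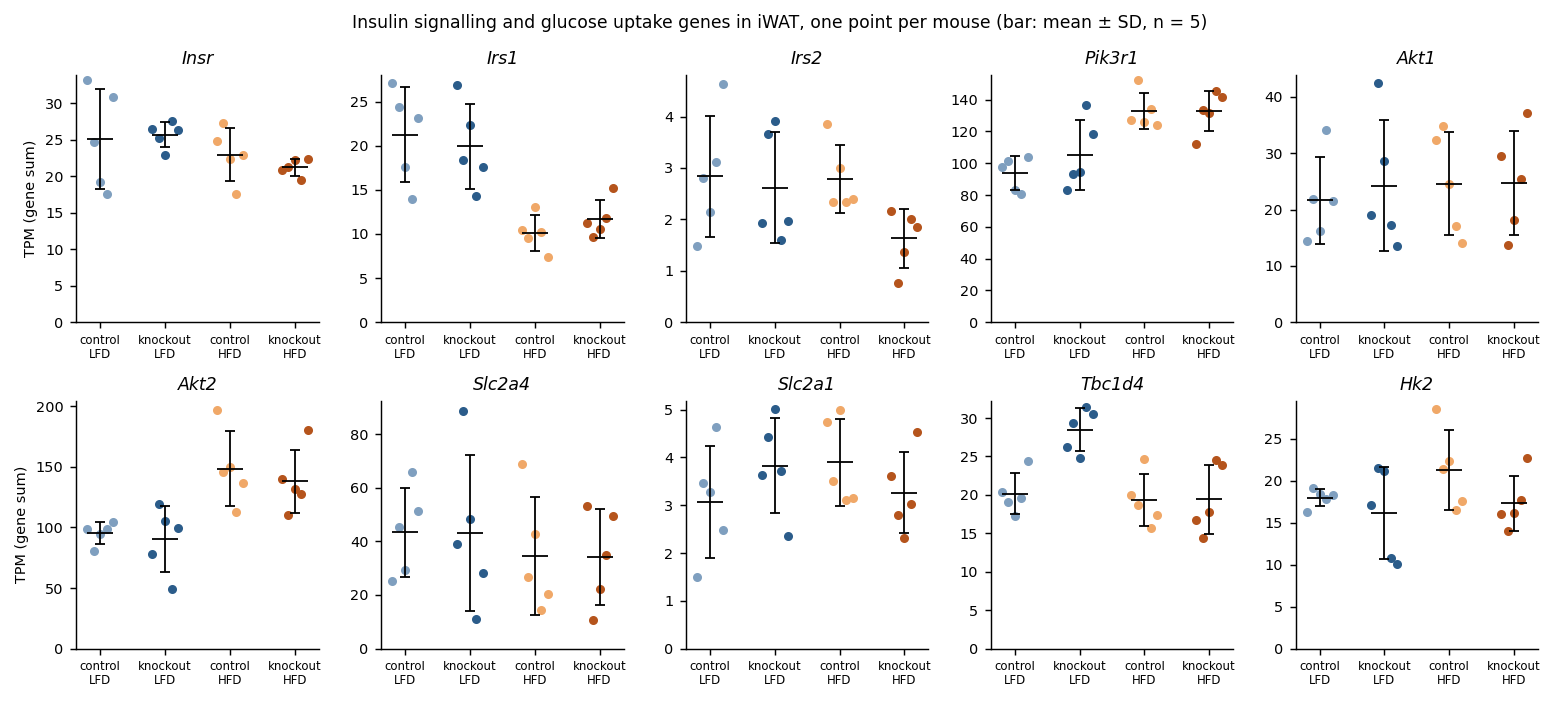
TPM of the 10 genes (vertical axis, starting at 0) in the 4 groups, with a point for each mouse and a bar for the mean ± SD of 5 mice. *Irs1* sits at 7.42 to 15.2 TPM on HFD against 13.9 to 27.1 TPM on LFD, *Akt2* at 111 to 197 TPM on HFD against 49.4 to 120 TPM on LFD, and *Slc2a4* spreads from 10.8 to 88.5 TPM within and across groups.

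The first comparison asked how the high-fat diet altered these genes. Over both genotypes, 4 of the 10 genes passed: *Irs1*, *Insr* and *Tbc1d4* fell and *Akt2* rose on HFD. Among all 15574 genes tested the share called in this comparison was 25.2%, with 1954 higher (12.5%) and 1977 lower (12.7%), so the count of 4 members is to be read against that share. The median change of the members was -0.23 on the log2 scale against -0.03 for all genes. Within genotype, 2 of 10 passed in control mice, where the background was 9.32%, and 4 of 10 in Ad-Tmem120a-/- mice, where it was 9.4%. The TPM of the diets did not overlap for 3 members in control mice (*Irs1*, *Pik3r1* and *Akt2*) and for 2 in Ad-Tmem120a-/- mice (*Insr* and *Tbc1d4*), against 9.78% and 7.95% of all genes, and for no member over both genotypes, against 1.73%.

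*Irs1*, the main docking protein of the insulin receptor in adipocytes, had the largest change of the members. In control LFD its levels were 27.1, 24.4, 17.6, 13.9 and 23.2 TPM, and in control HFD they were 10.5, 9.58, 13.1, 10.2 and 7.42 TPM. In knockout LFD they were 26.9, 18.4, 22.4, 14.3 and 17.6 TPM, and in knockout HFD they were 11.3, 9.63, 10.5, 11.8 and 15.2 TPM. Every HFD library lay below every LFD library in control mice. In Ad-Tmem120a-/- mice only the highest HFD library, at 15.2 TPM, reached into the LFD range, above the lowest LFD library at 14.3 TPM. *Irs1* fell by 1.04 on the log2 scale over both genotypes (95% interval -1.30 to -0.78, edgeR adjusted p = 8.66e-06), a 2.05-fold lower level. The fall was 1.23 in control mice (SE 0.17, edgeR adjusted p = 0.00421) and 0.85 in Ad-Tmem120a-/- mice (SE 0.17, edgeR adjusted p = 0.0150). *Irs1* was called in all 28 alternative analyses over both genotypes and in all 19 within each genotype. The gene lies on the minus strand of chromosome 1 at chr1:82229676-82287991 (mm9) and is annotated with a single transcript, so its gene sum rests on 1 model of 2 exons.

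*Irs2*, the second docking protein, was expressed at a much lower level and did not pass. Its change on HFD over both genotypes was -0.41 (95% interval -0.86 to 0.03, edgeR adjusted p = 0.195). It passed when control LFD replicate 1 was left out (edgeR adjusted p = 0.0800) and with DESeq2 with length offsets (-0.49, adjusted p = 0.0891). The ratio of *Irs1* to *Irs2* TPM was 4.46 to 18.2 in control LFD, 5.02 to 13.9 in knockout LFD, 2.71 to 4.38 in control HFD and 5.23 to 12.6 in knockout HFD. The 5 control HFD libraries thus had the lowest ratios of the 20, a pattern picked out after the values were seen and given without a test.

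*Akt2*, the Akt isoform most tied to insulin-stimulated glucose uptake, moved the other way. Control LFD libraries held 98.8, 80.5, 94.6, 98.3 and 105 TPM and control HFD libraries held 197, 146, 150, 113 and 137 TPM. Knockout LFD libraries held 77.8, 120, 105, 49.4 and 99.2 TPM and knockout HFD libraries held 140, 111, 131, 128 and 180 TPM. The diets did not overlap in control mice, and in Ad-Tmem120a-/- mice 1 LFD library, at 120 TPM, exceeded the lowest HFD library. *Akt2* rose by 0.60 on the log2 scale over both genotypes (95% interval 0.33 to 0.87, edgeR adjusted p = 0.00224), a 1.52-fold higher level, and was called in all 28 alternative analyses. Within genotype the rise was 0.52 in control mice (SE 0.16, edgeR adjusted p = 0.0934) and 0.69 in Ad-Tmem120a-/- mice (SE 0.19, edgeR adjusted p = 0.0611), and both calls depended on single mice. In control mice the call was lost without any of control LFD replicates 1, 2, 3 and 5 or control HFD replicates 11, 12, 13 and 15, with edgeR adjusted p up to 0.204. In Ad-Tmem120a-/- mice it was lost without any of knockout LFD replicates 6, 8, 9 and 10 or knockout HFD replicates 17 and 21, with edgeR adjusted p up to 0.164. The call in Ad-Tmem120a-/- mice was also lost with length offsets in DESeq2 (0.51, adjusted p = 0.102) and in edgeR (0.50, adjusted p = 0.199) and with limma on the TPM scale (0.65, adjusted p = 0.127). In control mice it was also lost with length offsets in edgeR (adjusted p = 0.122), without the filter on low values (adjusted p = 0.124) and with all 20 libraries in one fit (adjusted p = 0.107). Of the 15 annotated *Akt2* transcripts, 3 took at least 10% of its TPM, and the leading model, Akt2-013 (12 exons, 1314 coding bases), was 30.2 to 42.3 TPM on LFD and 50.7 to 78.9 TPM on HFD. It was the only one of the 17 such transcripts of the members that was higher in every HFD library than in every LFD library. Among all 35202 transcripts with a mean of at least 0.5 TPM, 0.935% did not overlap between the diets in either direction.

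*Akt1* gave no such difference. It was 13.6 to 42.5 TPM on LFD and 13.7 to 37.1 TPM on HFD, with a change over both genotypes of 0.14 (95% interval -0.16 to 0.43, edgeR adjusted p = 0.563). The sign of this small change turned when mean transcript length was accounted for (-0.04).

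**Figure D2:**
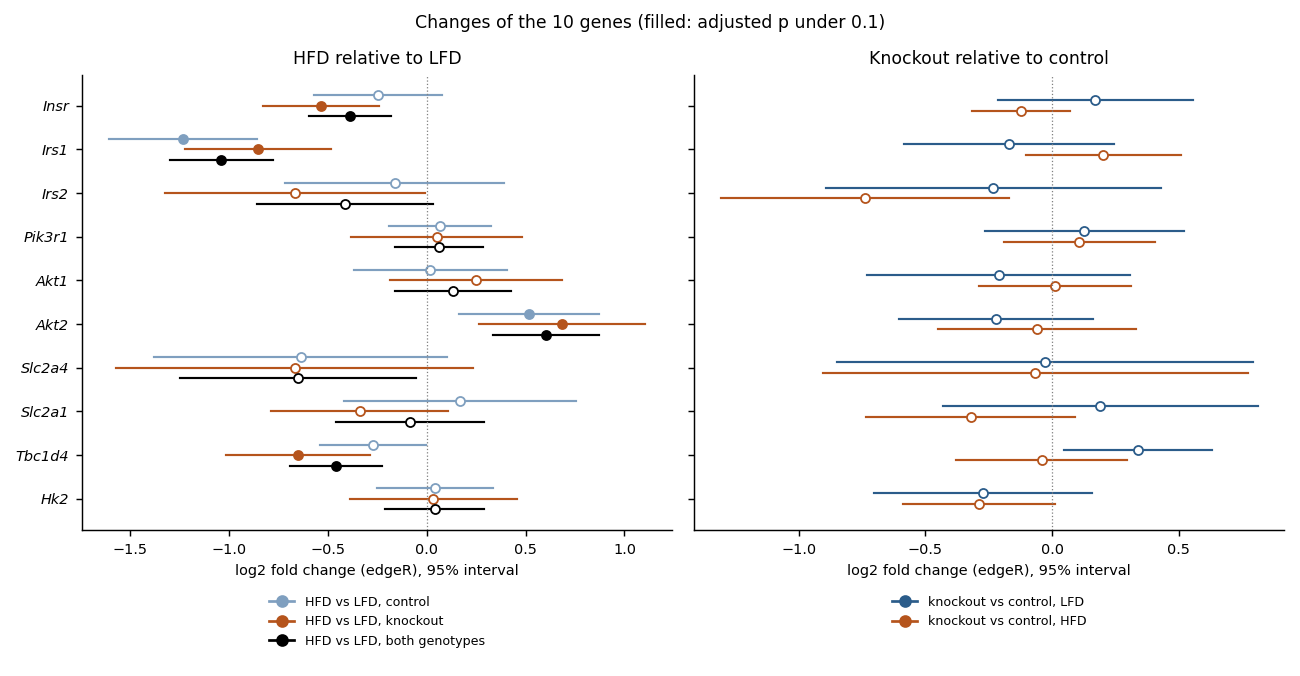
Log2 fold changes of the 10 genes with 95% intervals (horizontal axis) for HFD against LFD on the left and for knockout against control on the right, filled where the adjusted p was under 0.1. *Irs1*, *Insr*, *Tbc1d4* and *Akt2* are filled for the diet over both genotypes, with changes from -1.04 to 0.60, and no gene is filled for the genotype on either diet.

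The insulin receptor fell by less than its docking protein. *Insr* levels were 33.1, 24.7, 19.2, 17.6 and 30.9 TPM in control LFD and 24.8, 27.3, 22.3, 17.5 and 22.9 TPM in control HFD. They were 26.5, 25.3, 22.9, 27.6 and 26.3 TPM in knockout LFD and 20.8, 21.2, 22.2, 19.5 and 22.3 TPM in knockout HFD. The diets overlapped throughout in control mice and did not overlap in Ad-Tmem120a-/- mice, where knockout LFD was at least 22.9 TPM and knockout HFD at most 22.3 TPM. *Insr* fell by 0.39 on the log2 scale over both genotypes (95% interval -0.59 to -0.18, edgeR adjusted p = 0.00898) and by 0.54 in Ad-Tmem120a-/- mice (SE 0.13, edgeR adjusted p = 0.0397). In control mice its change was -0.25 (SE 0.15, edgeR adjusted p = 0.388), and the difference between the genotypes' responses was -0.31 (95% interval -0.71 to 0.09) and did not pass (edgeR adjusted p = 0.9999). Both calls were lost on the TPM scale, where limma gave -0.18 over both genotypes (adjusted p = 0.237) and -0.26 in Ad-Tmem120a-/- mice (adjusted p = 0.161).

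*Insr* (chr8:3150922-3279617, mm9, minus strand) makes a pair of receptor isoforms that differ by a short exon near the end of the α-subunit, exon 11: IR-A skips it and IR-B includes it. The annotation holds both forms, though unequally. The complete coding transcript, of 21 exons, lacks the exon, and a fragment of 672 bases in 5 exons carries it. The exon spans 36 bases at chr8:3181702-3181737 and is shown because it is the only sequence that tells the isoforms apart, with the exon in capitals and 20 intronic bases on each side:

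Insr exon 11: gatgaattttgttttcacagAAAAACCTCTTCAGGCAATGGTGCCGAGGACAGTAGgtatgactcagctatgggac

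The fragment took 31.4% ± 4.3 (SD, n = 5) of *Insr* TPM in control LFD, 20.3% ± 6.5 in knockout LFD, 26.5% ± 9.0 in control HFD and 28.6% ± 5.1 in knockout HFD. Its share ranged from 14.9% to 37.6% on LFD and from 13.4% to 36.9% on HFD, so the diets overlapped almost completely. Only 2.63% of the gene's estimated counts were assigned to it on average, so its TPM share is an estimate from few reads rather than a measure of exon inclusion.

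*Tbc1d4*, the brake on GLUT4 vesicles that Akt relieves, also fell over both genotypes and in Ad-Tmem120a-/- mice. It was 20.4, 19.1, 17.3, 19.6 and 24.4 TPM in control LFD and 19.99, 18.7, 24.7, 15.7 and 17.4 TPM in control HFD. It was 26.3, 29.4, 24.8, 31.4 and 30.5 TPM in knockout LFD and 16.8, 14.3, 17.8, 24.5 and 23.9 TPM in knockout HFD. Knockout LFD stood above the other 3 groups: its lowest library was 24.8 TPM, and the highest of the other 15 was 24.7 TPM. *Tbc1d4* fell by 0.46 on the log2 scale on HFD over both genotypes (95% interval -0.69 to -0.22, edgeR adjusted p = 0.00602) and by 0.65 in Ad-Tmem120a-/- mice (SE 0.17, edgeR adjusted p = 0.0440). Both calls held in every alternative run. In control mice the change was -0.27 (SE 0.12, edgeR adjusted p = 0.238), and on the TPM scale limma gave -0.06 (adjusted p = 0.830). The difference between the genotypes' responses was -0.40 (95% interval -0.84 to 0.04) and did not pass (edgeR adjusted p = 0.9999). Most of the TPM of *Tbc1d4*, 81.0% on average, was assigned to Tbc1d4-008, a retained-intron model of 3823 bases covering 8 exons and holding no annotated coding sequence. The gene sum therefore mainly follows reads over that stretch of the gene and not a full coding transcript.

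*Slc2a4* varied widely between mice, and its difference between the diets did not pass. Control LFD libraries held 25.3, 45.4, 29.2, 65.9 and 51.4 TPM and control HFD libraries 69.0, 26.6, 42.7, 14.2 and 20.3 TPM. Knockout LFD libraries held 39.2, 88.5, 48.4, 10.96 and 28.3 TPM and knockout HFD libraries 53.2, 10.8, 22.1, 35.0 and 49.3 TPM. All 4 groups overlapped. The change on HFD over both genotypes was -0.65 (95% interval -1.25 to -0.05, edgeR adjusted p = 0.122). DESeq2 called it (adjusted p = 0.0605), and edgeR did without control LFD replicate 1, knockout LFD replicate 9, control HFD replicate 11 or knockout HFD replicate 17, with adjusted p from 0.0402 to 0.0949. Within genotype the changes were -0.64 in control mice (edgeR adjusted p = 0.319) and -0.67 in Ad-Tmem120a-/- mice (edgeR adjusted p = 0.416), and in control mice *Slc2a4* passed without control HFD replicate 11 (-1.02, edgeR adjusted p = 0.0673).

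At its extremes the level of *Slc2a4* went with measures of the whole library. The small nuclear RNA 7SK took 6.41% to 19.8% of TPM, and the 3 libraries with the most 7SK (control LFD replicate 4, knockout LFD replicate 7 and control HFD replicate 11) were the 3 with the most *Slc2a4*. The number of transcripts with a count above 0 ran from 31268 to 52636, and the 2 libraries with the fewest (knockout HFD replicate 18 and knockout LFD replicate 9) were the 2 with the least *Slc2a4*. The library with the most, control LFD replicate 3, ranked only 12 of 20 for *Slc2a4*, at 29.2 TPM. These measures overlapped between the 4 groups: 7SK was 6.41% to 19.8% on LFD and 7.94% to 14.3% on HFD. Median detected transcripts were 51045 in control LFD, 45535 in knockout LFD, 45627 in control HFD and 40503 in knockout HFD. Skeletal muscle and brown adipocytes also express GLUT4. In control mice 9 of 12 skeletal muscle markers and 3 of 6 brown and beige markers were called lower on HFD, the direction of the *Slc2a4* value there. In Ad-Tmem120a-/- mice none of either list was called. The summed muscle markers were 8.29 to 3317 TPM in control LFD and 11.2 to 55.9 TPM in control HFD, and the summed brown and beige markers were 94.7 to 751 TPM and 54.1 to 228 TPM. With the number of detected transcripts as a covariate, an analysis added after the data were seen, the change of *Slc2a4* on HFD was -0.31 (edgeR adjusted p = 0.132). The part of these measures in the result was otherwise not tested. Slc2a4-001, the complete coding transcript, took 54.2% of the gene's TPM and 93.4% of its estimated counts, and Slc2a4-003, a processed transcript of 408 bases, took 37.2% of TPM, so the level in TPM leans on a short model.

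**Figure D3:**
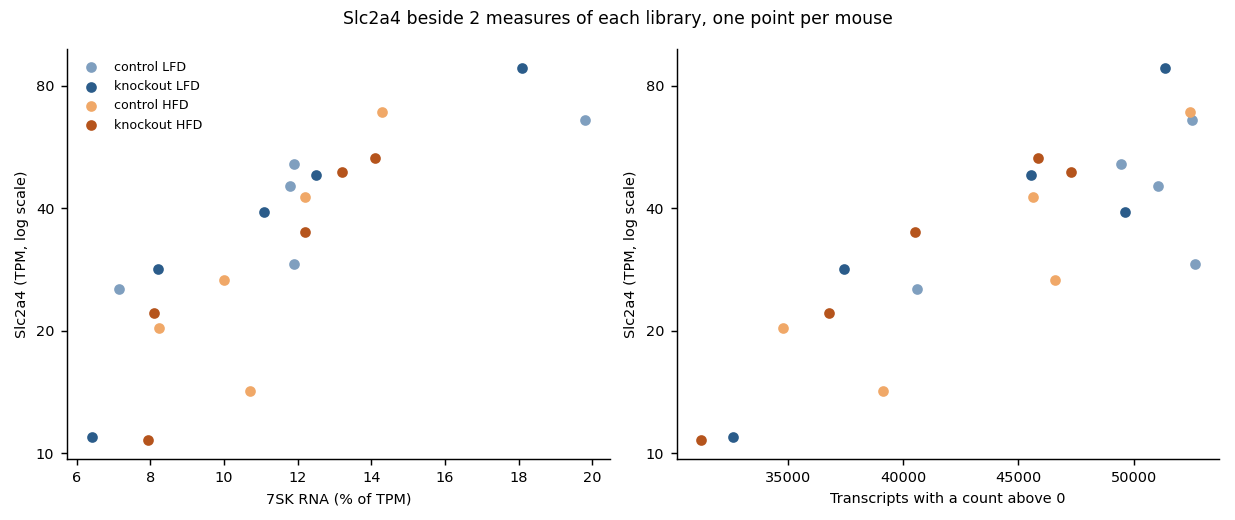
*Slc2a4* TPM (vertical axis, log scale) in each library against the share of TPM taken by 7SK RNA (left, percent) and against the number of transcripts with a count above 0 (right), with a point for each mouse coloured by group. The libraries with 10.8 and 10.96 TPM of *Slc2a4* hold the fewest detected transcripts, and the 4 groups are mixed along both axes.

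*Slc2a1* and *Hk2* gave small differences. *Slc2a1* changed by -0.08 (95% interval -0.46 to 0.29, edgeR adjusted p = 0.802), with a sign that turned on the TPM scale (0.06). *Hk2* changed by 0.04 (95% interval -0.21 to 0.29, edgeR adjusted p = 0.865), with a sign that turned without knockout LFD replicate 9 or 10 or control HFD replicate 11. The intervals leave room for changes of about 0.46 and 0.29 on the log2 scale.

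*Pik3r1* was a case in which the gene sum and its transcripts differed. Its gene sum of counts gave a change of 0.06 on HFD (95% interval -0.16 to 0.29, edgeR adjusted p = 0.749). Its TPM was 80.9 to 136.9 on LFD and 112.2 to 152.2 on HFD, and on the TPM scale limma called a rise of 0.43 (adjusted p = 0.00173). With offsets for mean transcript length edgeR gave 0.27 (adjusted p = 0.0624) and DESeq2 0.26 (adjusted p = 0.0450). The 3 annotated transcripts of the gene (chr13:102450716-102538172, mm9, minus strand) were therefore read one by one. The longest (16 exons, 724 codons) encodes p85α, the full regulatory subunit. The next (10 exons, 454 codons) starts inside the gene and encodes p55α, a shorter subunit that keeps the SH2 domains but not the SH3 and BH domains at the amino end. The last is a short fragment of 336 bases with a first exon of its own.

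The short transcripts carried the difference. The p55α transcript was 21.9, 22.7, 12.6, 6.93 and 29.3 TPM in control LFD and 38.1, 53.8, 45.9, 52.5 and 42.0 TPM in control HFD. It was 14.1, 15.6, 14.4, 29.2 and 11.2 TPM in knockout LFD and 23.3, 54.3, 50.2, 34.1 and 40.1 TPM in knockout HFD. Among the 20 libraries, knockout HFD replicate 17 (23.3 TPM) was the only HFD library within the LFD range. Its mean was 2.44 times as high on HFD (43.4 ± 9.96 TPM, SD, n = 10) as on LFD (17.8 ± 7.6 TPM). The short fragment had a mean of 10.5 ± 4.9 TPM on LFD and 24.5 ± 7.0 TPM on HFD, 2.33 times as high. The p85α transcript was 71.1 ± 12.7 TPM on LFD and 64.8 ± 12.2 TPM on HFD. The share of p85α in the gene's TPM was 70.3% ± 10.8 in control LFD, 73.6% ± 7.6 in knockout LFD, 45.3% ± 5.4 in control HFD and 52.5% ± 8.8 in knockout HFD. These transcript levels were not tested, and they divide reads over shared exons by Salmon's model. Reads of the last exons match both complete models, and the short fragment received only 0.456% of the gene's counts on average.

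The sequences that set the transcripts apart lie at their starts. The coding part of the first exon of the p55α transcript (chr13:102462138-102462243) gives p55α its own amino end. It is shown with the start codon in capitals, followed by the 16-base first exon of the short fragment (chr13:102464331-102464346), in capitals between 20 flanking bases, which also opens with ATG. Another known product of the gene, p50α, also starts within the gene, and the annotation does not say whether the short fragment stands for it.

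p55α first exon: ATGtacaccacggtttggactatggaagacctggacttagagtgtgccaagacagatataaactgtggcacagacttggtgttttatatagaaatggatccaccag
Short fragment first exon: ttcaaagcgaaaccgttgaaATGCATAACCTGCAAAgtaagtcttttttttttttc

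The 250 bases before the annotated start of p85α (chr13:102538173-102538422) and of p55α (chr13:102462603-102462852) are shown because the transcripts from these starts differed in TPM between the diets by unlike amounts. Capitals mark matches, on either strand, to GGGCGG (GC box), TATAAA (the core promoter box), CACGTG (E-box), TTCNNNGAA (STAT site) and TGTTTAC (FOXO site). No matches overlap one another.

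p85α upstream: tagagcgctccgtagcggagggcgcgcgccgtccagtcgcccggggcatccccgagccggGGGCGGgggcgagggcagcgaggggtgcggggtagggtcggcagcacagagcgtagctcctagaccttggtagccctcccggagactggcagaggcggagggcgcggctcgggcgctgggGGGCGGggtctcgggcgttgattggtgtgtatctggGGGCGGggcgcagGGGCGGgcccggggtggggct
p55α upstream: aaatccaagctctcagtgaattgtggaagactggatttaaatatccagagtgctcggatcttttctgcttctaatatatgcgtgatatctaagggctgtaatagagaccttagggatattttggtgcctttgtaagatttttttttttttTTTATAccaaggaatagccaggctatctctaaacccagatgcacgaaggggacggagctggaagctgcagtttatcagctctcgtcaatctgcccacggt

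The p85α window was 76.4% G and C and held GGGCGG 4 times, and the p55α window was 41.6% G and C, held no GGGCGG and held TATAAA once, on the opposite strand between 100 and 95 bases before the start. Of 32851 windows of the same length before RefSeq gene starts (GRCm38.p6), 32.7% held GGGCGG, 12.4% TATAAA, 6.02% CACGTG, 7.02% TTCNNNGAA and 3.17% TGTTTAC, and their median G and C content was 52.4%. No match to the last 3 motifs was found in either window. A match describes the letters and not the binding of a factor.

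**Figure D4:**
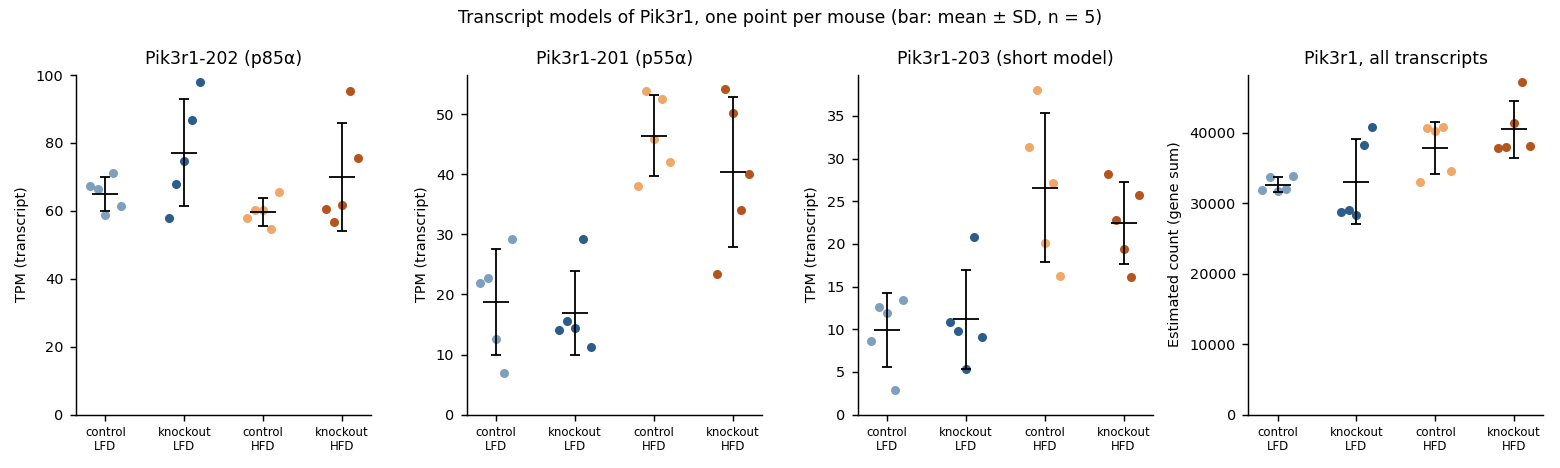
TPM of the 3 *Pik3r1* transcripts and, on the right, the estimated counts of the gene sum (vertical axes, starting at 0) in the 4 groups, with a point for each mouse and a bar for the mean ± SD of 5 mice. The p55α transcript is 6.93 to 29.3 TPM on LFD and 23.3 to 54.3 TPM on HFD, while the p85α transcript overlaps between the diets.

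The second comparison asked whether loss of *Tmem120a* from adipocytes altered the pathway. No member was called on HFD, on LFD or over both diets, by edgeR or in any alternative run. The background was also low, at 0.00657% of 15228 genes on HFD, 0.00636% of 15717 genes on LFD and 0.0385% of 15574 genes over both diets. Before adjustment, 1 member had a p under 0.05 on HFD (*Irs2*), 1 on LFD (*Tbc1d4*) and 2 over both diets (*Irs2* and *Hk2*), against 4.66%, 5.11% and 7.44% of all genes. On HFD the count over all genes, 1 by edgeR, was 58 without knockout HFD replicate 21, 10 without control HFD replicate 12, 2 without control HFD replicate 15 and 106 with DESeq2 with length offsets, and on LFD it was 2 without control LFD replicate 1. DESeq2 also called no member.

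*Irs2* had the largest difference on HFD. It was 3.86, 2.34, 2.99, 2.34 and 2.39 TPM in control HFD and 2.16, 0.764, 1.37, 2.01 and 1.86 TPM in knockout HFD, so every knockout library lay below every control library. Such a separation was seen in 0.69% of genes. The log2 fold change was -0.74 (95% interval -1.31 to -0.17, edgeR adjusted p = 0.966), and the adjusted p stayed at or above 0.371 in the 19 alternatives. *Irs2* on LFD overlapped between genotypes, with a change of -0.23 (95% interval -0.89 to 0.43). Over both diets it was -0.49 (edgeR adjusted p = 0.628).

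*Tbc1d4* had the largest difference on LFD. All 5 knockout libraries, from 24.8 TPM, lay above all 5 control libraries, up to 24.4 TPM, a separation seen in 1.4% of genes. The log2 fold change was 0.34 (95% interval 0.05 to 0.63, edgeR adjusted p = 0.929). On HFD the corresponding change was -0.04 (95% interval -0.38 to 0.30). *Hk2* was lower in knockout iWAT on HFD (-0.29) and on LFD (-0.27) without passing, and over both diets gave -0.29 (95% interval -0.54 to -0.03, edgeR adjusted p = 0.613).

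For *Slc2a4* the genotype difference was -0.07 on HFD (95% interval -0.91 to 0.77) and -0.03 on LFD (95% interval -0.85 to 0.79), and its sign turned in several alternatives. These intervals include changes of more than 1.7-fold in either direction, so the data leave the genotype effect on GLUT4 mRNA undetermined at that scale. The narrowest interval on HFD was that of *Insr* (-0.12, 95% interval -0.32 to 0.07). For *Irs1* the difference was 0.20 on HFD (95% interval -0.10 to 0.51) and for *Akt2* -0.06 (95% interval -0.45 to 0.33). The summed skeletal muscle markers were higher in knockout HFD than in most control HFD libraries. On HFD 10 of the 12 muscle markers and 1 of the 6 brown and beige markers were called higher in knockout iWAT by DESeq2, with or without length offsets, and none by edgeR. Their part in these comparisons was not tested.

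The third comparison asked whether the genotype effect differed between the diets. No member passed, and neither did any of 15574 genes in edgeR (0%), although 560 genes (3.6%) had an unadjusted p under 0.05 and DESeq2 called 14. The members' estimates ran from -0.53 for *Slc2a1* to 0.36 for *Irs1*.

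The remainder of the pathway was followed with a list of 98 further genes, of which 91 were abundant enough to be tested. This list was also chosen with earlier results of these data known. On HFD 16 rose and 21 fell over both genotypes, 40.7% of those tested against 25.2% of all genes, with a median change of -0.04 against -0.03. In control mice 12 passed, or 13.2% against 9.32% of all genes. This count ranged from 6 to 18 when single mice were left out, and was 7 or fewer without control LFD replicate 2, 3 or 5 or control HFD replicate 12, 14 or 15. In Ad-Tmem120a-/- mice 17 passed, or 18.7% against 9.4% of all genes, and the count was 10 without knockout LFD replicate 6 and 11 without knockout HFD replicate 19. No gene of the list was called for genotype or for the difference between the diets by edgeR. DESeq2 with length offsets called *Slc2a5* higher in knockout HFD than in control HFD (4.50, SE 1.01, adjusted p = 0.00316), where edgeR gave 2.35 (adjusted p = 0.9993). Beyond the 4 genes of largest change, those named by role below were picked with their values in view.

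The largest change of the list was in *Slc2a5*, the fructose transporter GLUT5. It was 1.44 to 43.4 TPM on LFD, 0.0048 to 0.0846 TPM in control HFD and 0.0238 to 2.70 TPM in knockout HFD. The fitted change was -5.54 (SE 0.58, edgeR adjusted p = 1.97e-06), and the lowest control HFD library rested on 1 estimated read. *Mlxipl*, which encodes the carbohydrate-sensing transcription factor ChREBP, fell by 1.18 (SE 0.13, edgeR adjusted p = 3.62e-06), from 13.1 ± 3.2 TPM in control LFD to 5.49 ± 1.51 TPM in control HFD and from 13.8 ± 3.1 to 7.25 ± 1.28 TPM in Ad-Tmem120a-/- mice. *Enpp1*, an inhibitor of the insulin receptor, fell by 1.06 (SE 0.16, edgeR adjusted p = 0.000115), and *Pygl*, a glycogen phosphorylase, fell by 1.05 (SE 0.17, edgeR adjusted p = 0.000190). Within Ad-Tmem120a-/- mice the 4 largest changes also included *Igf1r*, the IGF1 receptor, which fell by 1.17 (SE 0.18, edgeR adjusted p = 0.00459).

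At the top of the pathway neither of the 2 testable ligands, *Igf1* and *Igf2*, passed, and *Ins1* and *Ins2* were below the level tested. Those that passed among the receptors and docking proteins included *Igf1r* (-0.94) and *Cbl* (-0.72), which fell, and *Irs3* (0.43), which rose. Among 7 genes of PI 3-kinase and its lipid product, the regulatory subunit *Pik3r3* (0.55) and the catalytic subunit *Pik3cb* (0.38) rose and none fell. The inhibitors were split: *Grb14* (1.01), *Ptpra* (0.41) and *Grb10* (0.26) rose, while *Enpp1*, the receptor phosphatase *Ptprf* (-0.65) and the Akt phosphatase *Phlpp2* (-0.34) fell. *Grb14*, an adaptor that inhibits the receptor kinase, went from 19.4 ± 16.4 TPM to 46.7 ± 18.9 TPM in control mice and from 20.5 ± 7.0 to 41.4 ± 13.4 TPM in Ad-Tmem120a-/- mice.

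Of 17 genes around Akt and mTOR, 6 fell: *Foxo1* (-0.68) and *Foxo3* (-0.28), transcription factors that Akt inhibits, *Tsc2* (-0.36) and *Tsc1* (-0.22), which restrain mTORC1, and *Rptor* (-0.34) and *Rictor* (-0.29), subunits of the mTOR complexes. *Rheb* (0.38), the activator of mTORC1, and *Mapkap1* (0.25), a subunit of mTORC2, rose. Directions given by role are those of read counts, and TPM did not always follow. *Rictor* was 13.25 ± 1.35 TPM in control LFD and 13.24 ± 1.09 TPM in control HFD, against 15.96 ± 3.71 and 13.43 ± 0.62 TPM in Ad-Tmem120a-/- mice. *Tsc1* was 4.72 to 6.54 TPM in control LFD and 5.63 to 7.62 TPM in control HFD. In Ad-Tmem120a-/- mice it was 3.71 to 6.79 and 3.84 to 7.03 TPM. In GLUT4 vesicle traffic 3 of 16 fell, namely the vesicle SNARE *Vamp2* (-0.68), its partner at the cell surface *Stx4a* (-0.57) and the vesicle aminopeptidase *Lnpep* (-0.44). Another 4 rose, namely *Ehd2* (0.59), *Rac1* (0.39), *Snap23* (0.33) and *Rhoq* (0.28). *Tbc1d1*, the relative of *Tbc1d4*, gave -0.03. Among the 6 testable transporters beside GLUT1 and GLUT4, *Slc2a3* (-0.83) fell with *Slc2a5*, and *Slc2a10* (0.75) rose. In glycolysis 3 of 16 passed, the rises of *Pfkp* (0.53) and *Tpi1* (0.45) and the fall of *Pkm2* (-0.57), and in glycogen metabolism *Gys1* (-0.54) and *Gbe1* (-0.65) fell with *Pygl*, 3 of 6. Of the markers of other cell types, 3 of 4 endothelial, 1 of 4 macrophage and 3 of 10 white adipocyte genes also rose on HFD, 2 of 4 fat progenitor genes rose and 1 fell, and 1 of 6 brown and beige genes fell. No skeletal muscle, epithelial or lymphocyte marker was called over both genotypes. In control mice 9 of 12 skeletal muscle, 3 of 6 brown and beige, 1 of 6 epithelial and 1 of 4 fat progenitor markers fell, and in Ad-Tmem120a-/- mice 1 of 6 lymphocyte markers fell. Skeletal muscle and brown adipocytes also express genes of glycolysis and glycogen metabolism. Their part in the changes of the pathway was not tested.

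**Figure D5:**
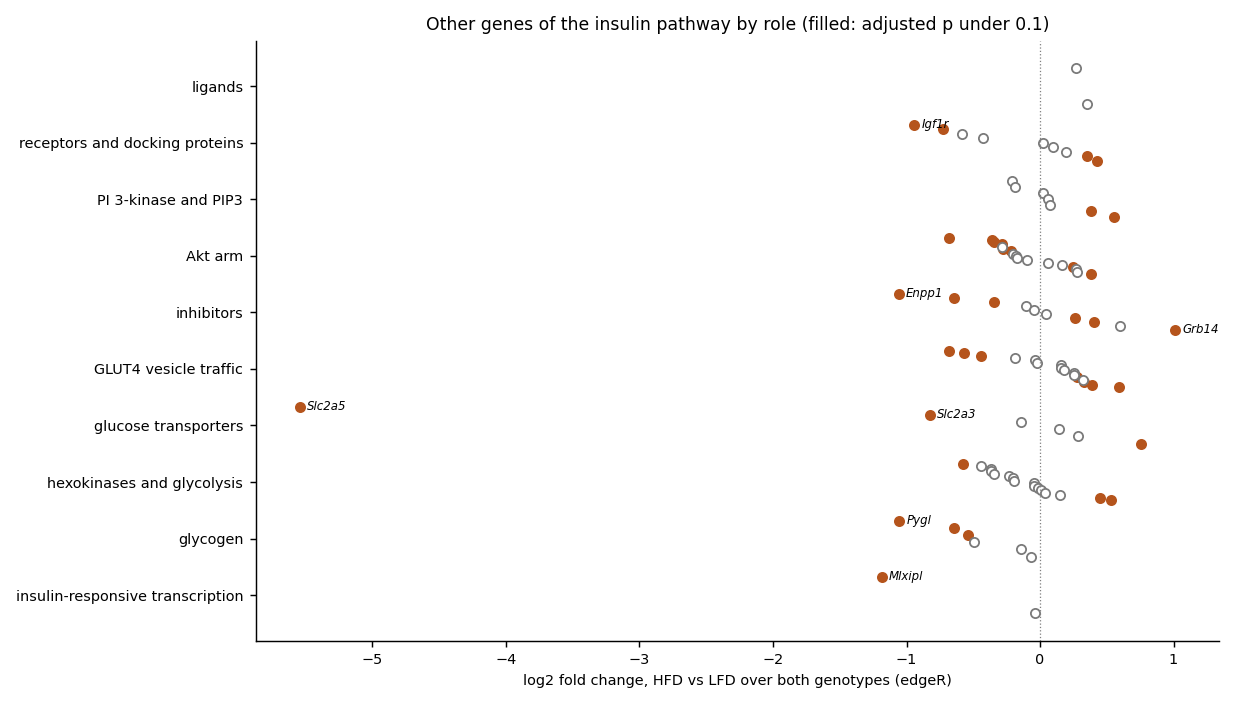
Log2 fold changes on HFD against LFD over both genotypes (horizontal axis) for the 91 tested genes of the pathway list, arranged by role, with a point for each gene, filled where the adjusted p was under 0.1. *Slc2a5* lies at -5.54, away from the rest, and filled points stand on both sides of 0 in 6 of the 10 roles.

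Likeness to other genes was read from Pearson's r of log2(TPM + 1) over the 20 libraries, among 15564 other genes, as a description. These libraries share a diet difference and differences in depth and composition, which every gene follows to some extent. *Slc2a4* was most like *Slc1a5* (r = 0.946), *Vegfb* (r = 0.932) and *Derl1* (r = 0.919). *Akt2* was most like *Ergic3* (r = 0.954), *Ctnnbip1* (r = 0.945) and *Hebp1* (r = 0.944). *Irs1* was most like *Fign* (r = 0.894), *Lrp1* (r = 0.871) and *Sipa1l3* (r = 0.862), and *Insr* was most like *Dock4* (r = 0.870). *Irs2* was most like *Zfp36* (r = 0.860), *Pik3r1* like *Noc3l* (r = 0.921), *Akt1* like *Tmem184b* (r = 0.902) and *Hk2* like *D11Wsu99e* (r = 0.939). *Slc2a1* was most like *Hist1h2bb* (r = 0.894) and *Tbc1d4* like *Gm340* (r = 0.856).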

How the data were processed

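Per the labels and the study's methods, the authors aligned 150 bp read pairs with STAR 2.5.3 to mm9 and quantified Ensembl NCBIM37.67 transcripts with Salmon 0.13.1. The deposited values are estimated counts and TPM per transcript. Here both were summed per gene with GENCODE vM1 (NCBIM37), which matched 97.72% of 96533 transcripts; the others held 0.377% to 0.581% of counts. Genes averaging 0.5 TPM or more over the libraries compared were tested on rounded sums with edgeR 4.0.16 (quasi-likelihood, TMM, Benjamini-Hochberg). The 7 comparisons were pairwise among 10 libraries or over all 20. The fits were also run on simulated counts with the same dispersion for every gene, a simpler setting than these libraries. The study's methods name tximport and DESeq2; DESeq2 was run as an alternative with and without length offsets, as were edgeR with length offsets and limma on log2(TPM + 1) or log2(TPM + 0.1). Members, lists and tests were chosen with earlier results of these data known. Genes named by rule were the members, *Tmem120a*, the 4 pathway genes of largest called change per comparison, the 3 genes most like each member, and transcripts with 10% of a member's TPM. The other pathway genes given by role were named after their values were seen. The library kit keeps strand; whether counting used strand is not given in the sources used here. Sequences came from NCBIM37, and promoter windows for motif shares from RefSeq.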

Additional observations from a re-analysis of the deposited data

How the results depend on the processing

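No paired analysis was run, because the replicate numbers run on across the groups and pair no mice. Which mice shared a litter or cage is not given in the sources used here. The counts of members called in control mice on HFD (2) fell to 1 with edgeR length offsets, to 1 without the filter on low values and to 1 with all 20 libraries in one fit, and ranged from 1 to 2 without single mice; *Akt2* was the gene lost each time. In Ad-Tmem120a-/- mice the count (4) was 2 with limma at either pseudocount and 3 to 4 without single mice, and over both genotypes (4) it ranged from 4 to 6. Members called for genotype and for the difference between diets stayed at 0 in every alternative. Small uncalled changes turned sign. *Slc2a4* between genotypes was 0.24 on HFD and 0.36 on LFD with detected transcripts as covariate, and -0.32 to 0.31 on HFD and -0.45 to 0.20 on LFD without single mice. On HFD against LFD over both genotypes, that covariate gave -0.032 for *Pik3r1* and 0.025 for *Slc2a1*; length offsets gave -0.039 for *Akt1* with DESeq2 and -0.038 with edgeR; limma gave 0.060 and 0.087 for *Slc2a1*; and *Hk2* ranged from -0.013 to 0.088 without single mice. The covariate, chosen after the data were seen, also called *Akt1* (0.34) and *Hk2* (0.20). On the TPM scale 3552 genes were called higher and 1184 lower on HFD over both genotypes, against 1954 and 1977 by edgeR. DESeq2 called 100 genes for genotype on HFD, 17 on LFD and 32 over both diets, against 1, 1 and 6 by edgeR, and 2205 for diet in control mice against 1427 and 2247 in Ad-Tmem120a-/- mice against 1476; without single mice edgeR gave 780 to 1845 and 753 to 1355. With the covariate the pathway list gave 37 calls in Ad-Tmem120a-/- mice against 17. With 5 mice a group, intervals of *Slc2a4* and *Irs2* remain wide.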
